A study of Homo sapiens with 11 samples.

Results

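The genes described here are 8 transcription factors and cofactors of the nephron lineage, PAX8, PAX2, LHX1, SIX2, EYA1, WT1, GATA3 and HNF4A. They were chosen by name, and all 8 were found among the 58243 genes of the RNA-seq data and among the 19645 protein-coding genes that could be placed in hg19. The study profiled HK2 cells, an immortalised human kidney line whose labels give proximal tubular epithelial cells, under 1 condition. The cells grew in DMEM-F12 medium with 10% FBS, penicillin-streptomycin and 0.05% DMSO, so every library shares the serum and the DMSO. All libraries come from this 1 line: 2 of RNA-seq, and for ChIP-seq 2 replicates each of H3K4me3, of H3K27ac and of H3K27me3. Input DNA and HiChIP were not analysed here. Nothing in the labels says that replicates came from separate cultures, so the spread between them may be technical, and with a single condition no difference between conditions was tested.

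The mammalian nephron arises from a cap of mesenchymal progenitors around the tips of the ureteric bud. SIX2 with the cofactor EYA1 maintains that progenitor pool, WT1 acts in the progenitors and later in podocytes, and PAX2 and PAX8 act in the nephric duct and the early epithelium, where LHX1 is needed for the renal vesicle. GATA3 belongs to the nephric duct and collecting duct lineage, and HNF4A drives the programme of the mature proximal tubule. H3K4me3 marks promoters and H3K27ac marks active promoters and enhancers, while H3K27me3 is deposited by Polycomb repressive complex 2, often over CpG-rich promoters of developmental regulators.

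Promoter sequence was looked at first because the peaks described below turn on these starts. Entries of the RefSeq promoter table (GRCh38.p14, 250 bases before to 50 after a start) were found for 6 of the 8 genes, in 16 windows, and each of the 16 matched hg19 exactly at 1 place. LHX1 and EYA1 had no entry. The 250 bases before the start are shown for the promoter of PAX8, which carried active marks, for those of SIX2, PAX2 and the upstream start of GATA3, which lay at or beside both H3K4me3 and H3K27me3, for WT1, which had H3K27me3 without H3K4me3, and for both promoters of HNF4A. In hg19 they lie at chr2:114036499-114036748 on the minus strand (PAX8), chr2:45236592-45236841 on the minus strand (SIX2), chr10:102505089-102505338 on the plus strand (PAX2), chr10:8087046-8087295 on the plus strand (GATA3), chr11:32457086-32457335 on the minus strand (WT1), and chr20:42984089-42984338 and chr20:43029629-43029878 on the plus strand (HNF4A, upstream and downstream promoter). Capitals mark CpG dinucleotides.
PAX8: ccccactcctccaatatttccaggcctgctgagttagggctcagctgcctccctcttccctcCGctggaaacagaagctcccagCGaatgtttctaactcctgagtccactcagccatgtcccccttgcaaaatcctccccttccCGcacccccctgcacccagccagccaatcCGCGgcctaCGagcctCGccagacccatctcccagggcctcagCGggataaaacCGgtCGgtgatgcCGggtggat
SIX2: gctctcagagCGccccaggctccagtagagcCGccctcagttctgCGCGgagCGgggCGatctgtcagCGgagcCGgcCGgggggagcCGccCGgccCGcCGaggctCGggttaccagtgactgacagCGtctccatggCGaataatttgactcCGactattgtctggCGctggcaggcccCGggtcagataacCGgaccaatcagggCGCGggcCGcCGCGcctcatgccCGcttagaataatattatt
PAX2: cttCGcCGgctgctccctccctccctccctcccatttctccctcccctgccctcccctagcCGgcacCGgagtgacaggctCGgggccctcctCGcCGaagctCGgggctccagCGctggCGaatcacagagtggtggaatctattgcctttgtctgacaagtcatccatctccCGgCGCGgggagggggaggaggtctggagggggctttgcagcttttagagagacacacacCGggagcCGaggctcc
GATA3 upstream start: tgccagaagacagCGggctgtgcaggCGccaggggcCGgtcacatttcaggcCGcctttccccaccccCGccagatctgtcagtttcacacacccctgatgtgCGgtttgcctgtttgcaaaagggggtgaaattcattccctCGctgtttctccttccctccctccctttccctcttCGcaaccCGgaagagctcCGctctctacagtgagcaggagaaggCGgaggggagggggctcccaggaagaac
WT1: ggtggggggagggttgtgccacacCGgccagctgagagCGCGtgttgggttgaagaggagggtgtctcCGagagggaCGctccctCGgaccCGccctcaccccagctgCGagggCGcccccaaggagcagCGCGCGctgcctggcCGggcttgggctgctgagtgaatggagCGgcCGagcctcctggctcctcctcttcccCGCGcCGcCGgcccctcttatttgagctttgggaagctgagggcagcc
HNF4A upstream: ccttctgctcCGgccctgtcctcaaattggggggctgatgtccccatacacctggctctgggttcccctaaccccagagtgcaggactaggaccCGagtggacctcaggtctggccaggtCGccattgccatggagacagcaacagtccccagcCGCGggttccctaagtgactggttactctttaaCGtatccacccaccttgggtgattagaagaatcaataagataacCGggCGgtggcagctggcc
HNF4A downstream: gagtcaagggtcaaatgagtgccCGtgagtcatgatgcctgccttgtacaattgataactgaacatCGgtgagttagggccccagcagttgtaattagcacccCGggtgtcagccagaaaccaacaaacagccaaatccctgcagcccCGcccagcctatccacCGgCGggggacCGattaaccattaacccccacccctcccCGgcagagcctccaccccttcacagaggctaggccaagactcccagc

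The promoter of SIX2 was the richest in CpG of these 7, with 26 in the 250 bases shown, against 8 in each promoter of HNF4A. WT1 had 19, PAX2 15, and PAX8 and the upstream start of GATA3 11 each. Over the full windows of 300 bases, SIX2 held 29 CpG, more than 75.8% of the 35116 windows of the table, whose median was 14. PAX8 held 13, near that median, at a GC content of 62.0% (over all windows the median was 58.7%). The promoter of highest GC among the 16 was the GATA3 start at -1.05 kb from the canonical start, with 74.7% GC and 36 CpG. CpG number did not order the genes by RNA, since PAX8 had fewer CpG and by far the more RNA than SIX2.

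Each window was searched on both strands for 6 fixed motifs, whose letters do not contain one another. The GATA motif AGATAA lay at -63 from the start of SIX2 and at -26 from the upstream start of HNF4A, and 10.3% of all windows held it. The homeodomain core TAATTA lay at -159 from the downstream start of HNF4A and at -33 from a WT1 start inside the gene, against 4.84% of all windows. TATAAA was matched on the opposite strand, as TTTATA, in 1 GATA3 window (11.5% of all windows). No window of these genes held the letters searched for HNF4 (CAAAGTCCA, 0.384% of all windows), SIX2 and its relatives (TCANGTTTC, 1.03%) or the EGR and WT1 type (GCGTGGGCG, 0.795%). These are matches of letters only and say nothing of binding.

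The 2 RNA-seq libraries held 4.54 and 4.42 Gb of aligned sequence over annotated transcripts, as coverage times length. Their values are FPKM, fragments scaled by transcript length and by library size, summed here over the transcripts of a gene, and read counts are not given. All 8 housekeeping genes looked at lay between 15.9 and 5362 FPKM, while 3849 of the protein-coding genes (19.6%) were listed at 0 in both libraries. The labelled cell type was checked against 11 proximal tubule markers, of which 2 reached an FPKM of 1 in both libraries, beside 58.8% of all protein-coding genes. They were GGT1, a brush border enzyme (64.1 and 58.1), and SLC5A2, a glucose transporter (1.56 and 2.36). LRP2, SLC22A6 and SLC22A8 were listed at 0, and the summed FPKM of the 11 was 66.5 and 60.9. Of 5 epithelial markers 4 reached 1, led by the keratin KRT8 (179 and 184), while the cadherin CDH1 had 0.210 and 0.283 with all 3 marks at its starts. All 3 mesenchymal markers reached 1, led by FN1 (2333 and 2343). Of other cell types, CDH5 and KDR (endothelial) were at most 0.0404, and of 3 leukocyte markers PTPRC and CD3E were listed at 0 while CD68, a lysosomal protein of macrophages, had 42.5 and 36.8. Of the podocyte list, 2 of 3 podocyte markers, SYNPO and PODXL, reached 1. The defining markers of the proximal tubule were therefore mostly near 0 in these cells. In bulk RNA, fewer expressing cells and less RNA per cell cannot be told apart.

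Among the 8 factors, RNA was abundant for PAX8 and LHX1, low for SIX2, PAX2 and GATA3, and listed at 0 for HNF4A, WT1 and EYA1. PAX8 had an FPKM of 100.2 and 104 (mean 102 ± 2.79, SD, n = 2), above 97.6% of protein-coding genes. LHX1 had 61.9 and 60.1 (61.0 ± 1.25), above 95.4%. Both stood far over the median protein-coding gene, at 3.32. SIX2 had 0.828 and 0.694 (0.761 ± 0.0947), PAX2 0.372 and 0.400 (0.386 ± 0.0200) and GATA3 0.557 and 0.211 (0.384 ± 0.245). In that order these means lay above 38.7%, 35.4% and 35.4% of protein-coding genes. In order of the mean, PAX8 exceeded LHX1 1.67-fold and LHX1 exceeded SIX2 80.1-fold, and in each step the libraries did not overlap. SIX2 exceeded PAX2 1.97-fold, also without overlap, whereas the values of PAX2 and GATA3 overlapped and their order is not resolved. FPKM is scaled by transcript length, so these levels are compared per length.

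**Figure D1:**
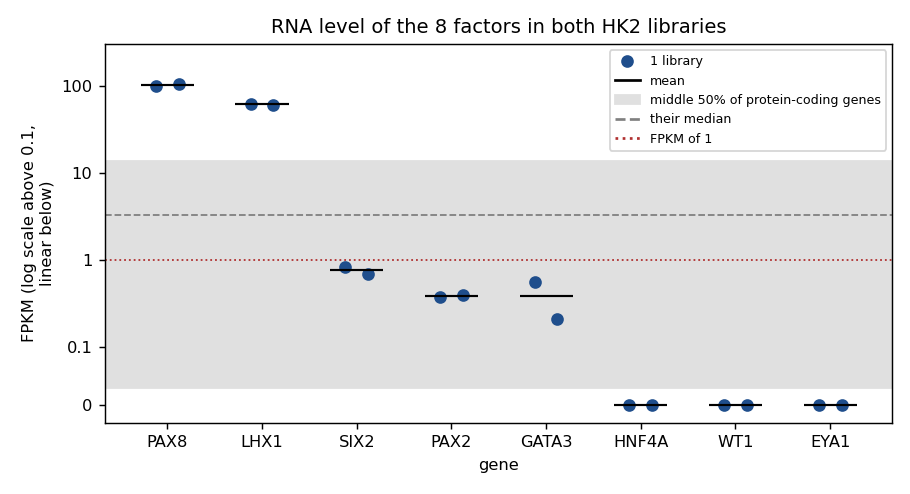
FPKM of each gene (vertical axis, logarithmic above 0.1 and linear below) in each of 2 libraries (points) with their mean (bar), over the middle 50% of 19645 protein-coding genes (grey band, median dashed). PAX8 and LHX1 lie above the band. SIX2, PAX2 and GATA3 lie inside it and below an FPKM of 1 in both libraries. HNF4A, WT1 and EYA1 are at 0.

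Both libraries gave an FPKM of 1 or more for 2 of the 8 genes, beside 58.8% of all protein-coding genes. On the TPM scale (transcripts scaled to a fixed total) 4 genes reached 1, since SIX2 and PAX2 were added. TPM values ran higher than FPKM here (mean of PAX8 283 against 102), so a TPM of 1 is a lower cut. The share of all genes that reach it is not given here, and the 58.8% does not apply to it. The sequence behind each value differed widely. PAX8 rested on 1692 and 1645 kb of aligned sequence and LHX1 on 691 and 644 kb, while SIX2 rested on 10.4 and 8.45 kb, PAX2 on 8.04 and 5.07 kb, and GATA3 on 3.59 and 1.54 kb. The low values are accordingly the less precise ones. For PAX2, library 2 held less aligned sequence than library 1 but a slightly higher FPKM. Its FPKM went mainly to a transcript of 4057 bases in library 1, and to transcripts of 3193 and 1216 bases in library 2. The SD of 0.0200 of PAX2 may therefore understate its spread. For the genes listed at 0, no transcript of HNF4A (9 annotated), WT1 (12) or EYA1 (11) had any coverage in either library.

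PAX8 (ENSG00000125618, chr2:113973574-114036498, minus strand), a paired-box factor of the nephric lineage and thyroid, was the highest of the group. All 13 of its annotated transcripts were above 0 in both libraries. The leading transcript, ENST00000348715, had 29.0 and 25.3 FPKM, and ENST00000429538 followed with 14.8 and 16.8. Transcripts annotated at the canonical start cluster summed to 69.9 and 70.7. That sum includes ENST00000468980 (2.71 and 3.52), whose quantified model began inside the gene, at GRCh38 position 113241683. Most of the rest was assigned to transcripts with 2 starts inside the gene. That at 41.4 kb had 15.2 and 15.6, and that at 58.4 kb had 13.5 and 16.0. Both of those transcripts are annotated as retained introns, a class that made up 37.2% of the gene's FPKM in rRNA-depleted total RNA. The library values of each start lay close together, so the assignment of FPKM was repeatable at this depth. The nearest H3K4me3 peaks of the replicates lay 3019 and 1809 bases from the start at 41.4 kb. From that at 58.4 kb they lay 20050 and 14947 bases away. H3K27ac peaks covered both starts, except at 41.4 kb in replicate 2, where the nearest was 351 bases away. FPKM assigned to a transcript does not by itself show that transcription began at its start.

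The antisense RNA PAX8-AS1, which overlaps PAX8, had an FPKM of 12.1 and 10.7. Whether reads were assigned by strand is not given in the sources used here, so reads of the overlapping parts cannot be told apart. The canonical start lay inside an H3K4me3 peak in both replicates, from 114032397 to 114037161 (4765 bases, wider than 98.3% of its list) and from 114034230 to 114036586 (2357 bases, wider than 98.1%). H3K27ac covered 60.4% and 29.4% of the gene with 10 kb on each side, more than at 99.6% and 99.3% of genes. The widest H3K27ac peak, 18429 bases in replicate 1, lay 27.1 to 45.6 kb downstream of the start, and in replicate 2 the same stretch held several shorter peaks, the widest 3802 bases. All 17 H3K27ac peaks of replicate 2 overlapped one of replicate 1, and 6 of 10 the other way. No H3K27me3 peak lay in the window, the nearest being 118761 and 39219 bases from the start cluster. The 18429-base peak also covers starts of PAX8-AS1 and of the antisense gene RP11-65I12.1, and starts inside PAX8 itself. Peaks of H3K27ac thus lay over the body of PAX8 in both replicates, and in replicate 1 across its canonical start. In replicate 2 that start lay between 2 peaks, from 0.044 to 3.81 kb and from -0.862 to -0.310 kb. Which of the overlapping genes the H3K27ac peaks belong to cannot be told apart.

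**Figure D2:**
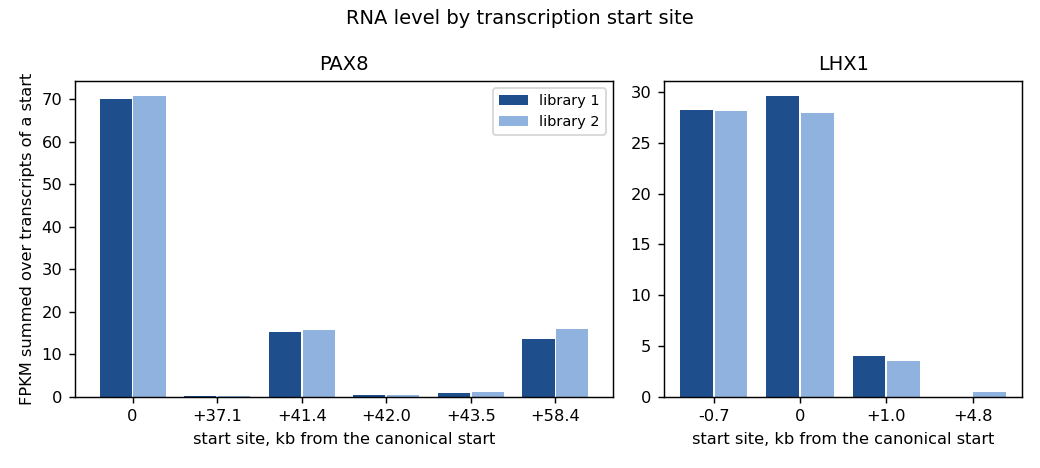
FPKM summed over the transcripts of each start (bars, 2 libraries) against the distance of the start from the canonical start in kb. In PAX8 the transcripts annotated at the canonical start sum to 69.9 and 70.7, including ENST00000468980, whose quantified model began inside the gene. In LHX1 the start at -0.688 kb (28.3 and 28.2) and the canonical start (29.6 and 27.9) are about equal.

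PAX2 (ENSG00000075891, chr10:102495153-102589701, plus strand), the close paralog of PAX8 in the nephric lineage, had 0.372 and 0.400 FPKM. Of its 9 transcripts 1 was above 0 in both libraries, ENST00000483202, a retained intron with 0.0316 and 0.181. The coding transcript assigned most of the FPKM differed between the libraries, ENST00000355243 in library 1 (0.340) and ENST00000361791 in library 2 (0.218), so no isoform can be named as the main one. Summed by start, the FPKM all came from the canonical cluster, and the start at -10.1 kb had 0 in both. This gene held peaks of all 3 marks, some of which overlapped.

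An H3K27me3 peak lay across the canonical start of PAX2 from -4.63 to 11.7 kb in replicate 1 (16312 bases) and from -5.27 to 6.47 kb in replicate 2 (11743 bases), wider than 99.6% and 99.9% of their lists. Within it, H3K4me3 peaks of 2080 and 1854 bases covered the start itself. H3K27me3 covered 36.1% and 27.5% of the window, more than at 97.8% and 99.1% of genes, in 19 and 23 peaks. Within 1 kb of its starts, 2274 bases in replicate 1 and 3066 in replicate 2 lay in peaks of both H3K4me3 and H3K27me3, the most of the 8 genes. H3K27ac was absent from all PAX2 starts. A region upstream of the gene did carry it, from -16.3 to -12.5 kb in replicate 1 and from -15.9 to -13.7 kb in replicate 2, and H3K4me3 peaks of 3854 and 2255 bases lay over the same place. Those peaks were 2276 to 3741 bases from the nearest PAX2 start, and no start of another annotated gene lay within 1 kb of them. Replicate 1 alone had another H3K27ac peak, of 1519 bases, from -6.73 to -5.21 kb.

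LHX1 (ENSG00000273706, chr17:35294084-35301912, plus strand), a LIM homeodomain factor required for renal vesicle patterning, was the second most abundant. Its canonical coding transcript ENST00000614239 had 28.8 and 27.9 FPKM. A short transcript with no defined coding sequence, ENST00000619297, starts at -0.688 kb and had 28.3 and 28.2. In length-scaled units these are about equal, but they are 3425 and 569 bases long. A single H3K4me3 peak covered both starts in each replicate (4933 and 4651 bases, wider than 98.6% and 99.9% of their lists), and H3K27ac peaks of 4959 and 3864 bases lay over the same interval. H3K27me3 was absent from the window, with the nearest peak 127415 and 128103 bases away.

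H3K4me3 covered 26.8% and 29.4% of the LHX1 window, more than at 98.3% and 99.2% of genes. Part of that cover belongs to neighbours. The peaks at 10.6 to 13.2 kb lay over the start of AATF, a transcription regulator with 36.9 and 36.7 FPKM, and the divergent LHX1-DT starts inside the LHX1 promoter peak, with 6.90 and 7.84 FPKM. The overlapping antisense RNA AC243773.1 had 3.08 and 2.58. The canonical start of LHX1 and the start at -0.688 kb lay in peaks of H3K4me3 and H3K27ac in both replicates.

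SIX2 (ENSG00000170577, chr2:45232321-45236591, minus strand), the homeodomain factor of self-renewing nephron progenitors, has 1 annotated transcript, with 0.828 and 0.694 FPKM. Its start lay inside an H3K4me3 peak of 2658 bases in replicate 1 and 2203 bases in replicate 2. The upstream H3K27me3 peaks stopped short of the start, at -0.773 and -0.772 kb, and reached to -8.61 kb in replicate 1. Downstream of the gene, further H3K27me3 peaks lay from 7.22 to 8.98 kb in replicate 1 and from 7.61 to 8.35 kb in replicate 2. The start itself was therefore in H3K4me3 peaks only, and 228 and 229 bases within 1 kb of it were in peaks of both marks. H3K27me3 covered 45.1% and 22.4% of the window, more than at 98.6% and 98.7% of genes, while the gene body alone held none. No H3K27ac peak lay in the window, the nearest being 91106 and 175821 bases from the start. H3K27me3 in this gene thus flanked a start that kept H3K4me3.

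EYA1 (ENSG00000104313, chr8:72109668-72504260, minus strand), the phosphatase cofactor of SIX2 and its relatives, is the longest of these genes at 395 kb and was listed at 0, as was the overlapping antisense RNA AC022858.1. H3K4me3 at its canonical start spanned 671 and 437 bases, and lay inside or across an H3K27me3 peak of 2841 bases in replicate 1 and 674 bases in replicate 2. Peaks of both marks therefore lay at 1 of its 9 start clusters in both replicates. Another H3K27me3 peak lay from -198 to -193 kb of that start in replicate 1 (5197 bases). In replicate 2 it lay from -198 to -194 kb (3755 bases). These peaks were 6456 and 7842 bases from an upstream start cluster whose transcripts were not among those quantified. On that cluster itself an H3K27me3 peak of 826 bases was called in replicate 1 only, and an H3K4me3 peak of 722 bases in replicate 2 only. H3K27ac was absent from the window.

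WT1 (ENSG00000184937, chr11:32409321-32457110, minus strand), the zinc finger factor of progenitors and podocytes, had no H3K4me3 or H3K27ac peak in its window in any replicate. Its nearest H3K4me3 peaks were 147476 and 147646 bases from the canonical start cluster. H3K27me3 lay beside or on the canonical start, from -4.29 to -0.655 kb in replicate 1 and in 3 peaks of replicate 2, of which that at -0.210 to 0.466 kb covered the start. The cover of the window was small, 5.78% and 3.22%, more than at 84.9% and 89.1% of genes. The divergent WT1-AS was also listed at 0. WT1 was the only one of the 8 with H3K27me3 in both replicates and H3K4me3 in neither, a class that held 1.74% of all genes.

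GATA3 (ENSG00000107485, chr10:8087341-8117161, plus strand) is a zinc finger factor of the nephric duct and collecting duct. Relative to its mean, its FPKM differed the most between libraries, at 0.557 and 0.211. In library 1, 0.410 of it and in library 2, 0.140 came from a short transcript of 442 bases that starts at -1.08 kb, and the rest from the canonical transcript (0.147 and 0.0708). Its starts differed in marks. The upstream start at -9.31 kb lay inside an H3K27me3 peak of 19984 bases in replicate 1 and 10194 bases in replicate 2, and inside H3K4me3 peaks of 730 and 584 bases. The canonical start lay inside H3K4me3 peaks of 1601 and 1385 bases, and the H3K27me3 domain ended before it, at -1.51 and -1.69 kb. Both marks were therefore present over the upstream start and separated at the canonical one. H3K27me3 covered 35.7% and 30.3% of the window, more than at 97.7% and 99.3% of genes, and no H3K27ac peak lay in it. The divergent GATA3-AS1 was listed at 0.

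HNF4A (ENSG00000101076, chr20:42984339-43061485, plus strand), the nuclear receptor of the mature proximal tubule, was listed at 0 in both libraries, like the overlapping antisense RNAs HNF4A-AS1 and AL117382.2 and the microRNA gene MIR3646. It has 2 start clusters 45.6 kb apart. H3K27me3 covered 43.5% of the window in replicate 1 (15 peaks) and 21.7% in replicate 2 (16 peaks), more than at 98.5% and 98.6% of genes. The widest peak of replicate 1, 9328 bases, reached across the downstream starts, and that of replicate 2, 4153 bases, lay ahead of them. At the starts themselves the replicates differed: H3K27me3 peaks of replicate 1 reached both start clusters, while the nearest of replicate 2 were 1739 and 1148 bases away. H3K4me3 was called only in replicate 2, as 25 peaks of at most 1263 bases, and replicate 1 had none in the window. Of the 25, 15 overlapped an H3K27me3 peak of replicate 1, and 7 overlapped one of replicate 2.

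This difference goes beyond HNF4A. The H3K4me3 list of replicate 2 holds 73505 peaks with a median width of 434 bases, against 28615 with a median of 1194 bases in replicate 1, and in the PAX2 window it has 20 peaks against 5. Of the replicate 2 peaks that replicate 1 lacks, 10.1% overlapped an H3K27me3 peak, against 3.04% of the replicate 1 peaks that replicate 2 lacks. Among peaks found in both lists the share was 12.9% in replicate 1 and 12.1% in replicate 2. These shares were not matched for peak width, which differs between the lists. By the study's own account, the second H3K4me3 library had fewer aligned read pairs than the first and a smaller share of reads in peaks. The lists give positions without scores, so weak peaks cannot be separated from strong ones, and the source of the difference was not tested. The statements on HNF4A and H3K4me3 rest on replicate 2 alone. The lists of the other marks also differ in extent over the genome. H3K27me3 peaks covered 88.3 Mb in replicate 1 and 26.7 Mb in replicate 2, and H3K27ac peaks 107 and 38.9 Mb. The smaller cover by these marks in replicate 2 was thus not particular to the genes described here.

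**Figure D3:**
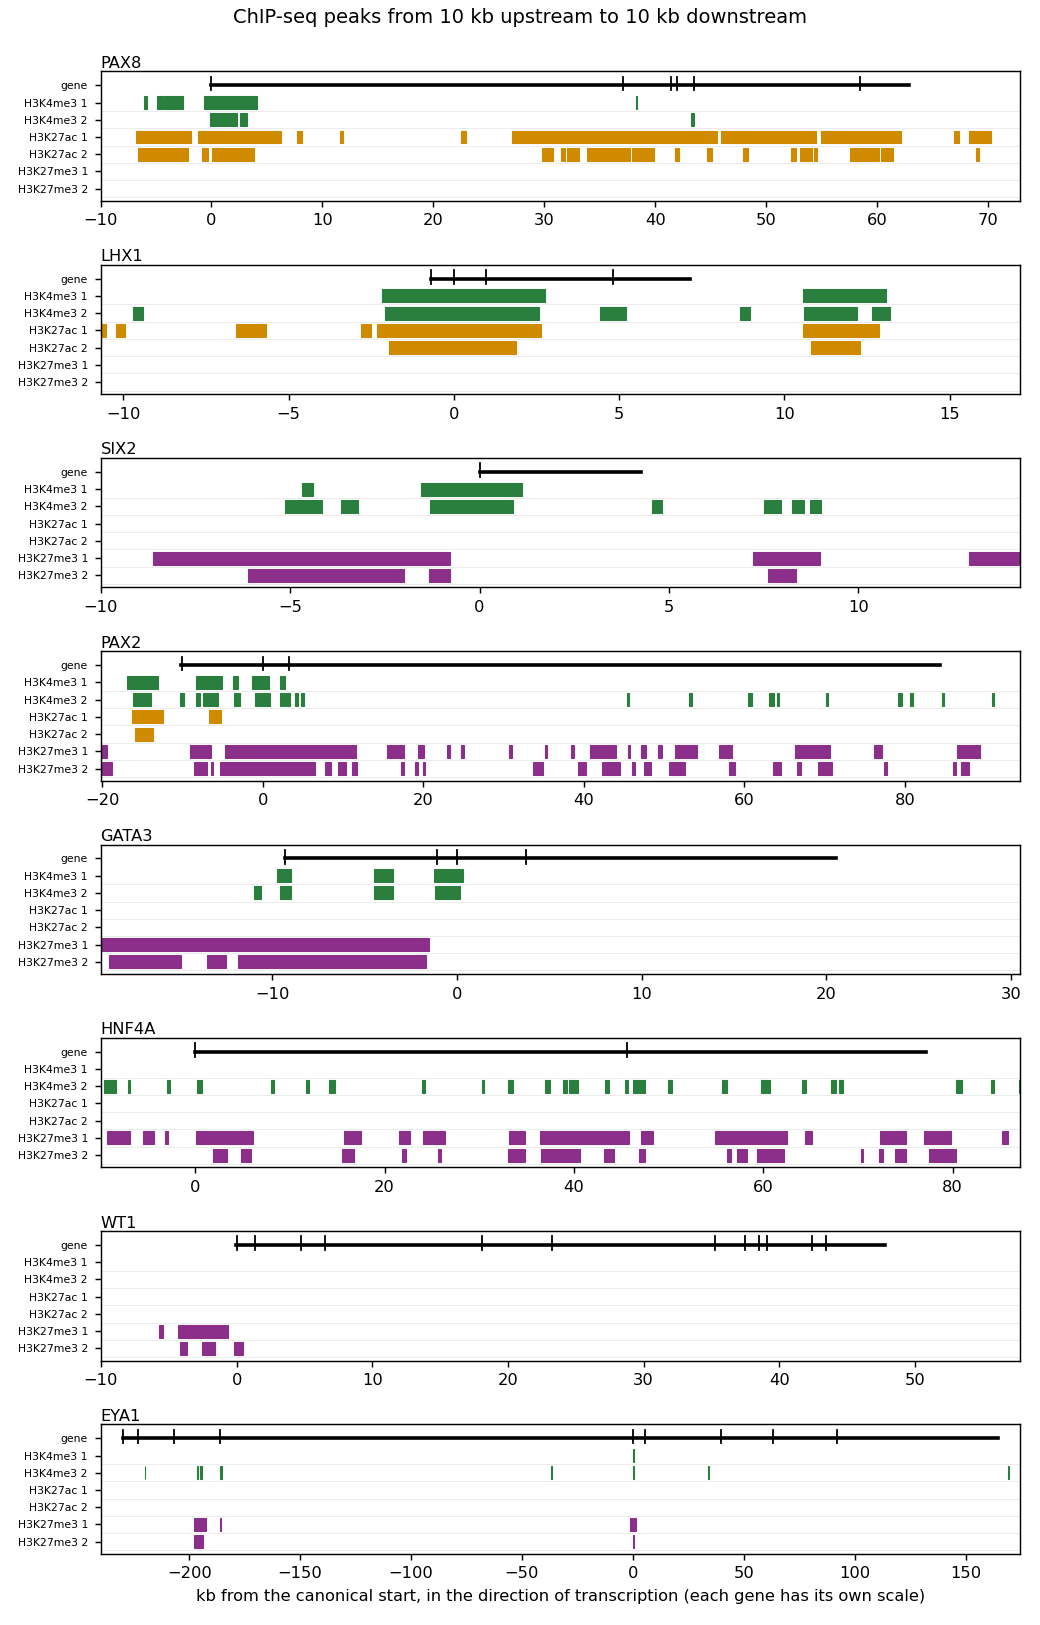
Peaks of the 6 lists (rows, 1 and 2 for the replicates) from 10 kb upstream to 10 kb downstream of each gene, in kb from the canonical start in the direction of transcription, each gene on its own scale. The black line is the gene and its ticks are annotated starts. H3K27ac fills much of PAX8, H3K27me3 lies across PAX2 and HNF4A, and at SIX2 and GATA3 its upstream peaks stop short of the canonical start.

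**Figure D4:**
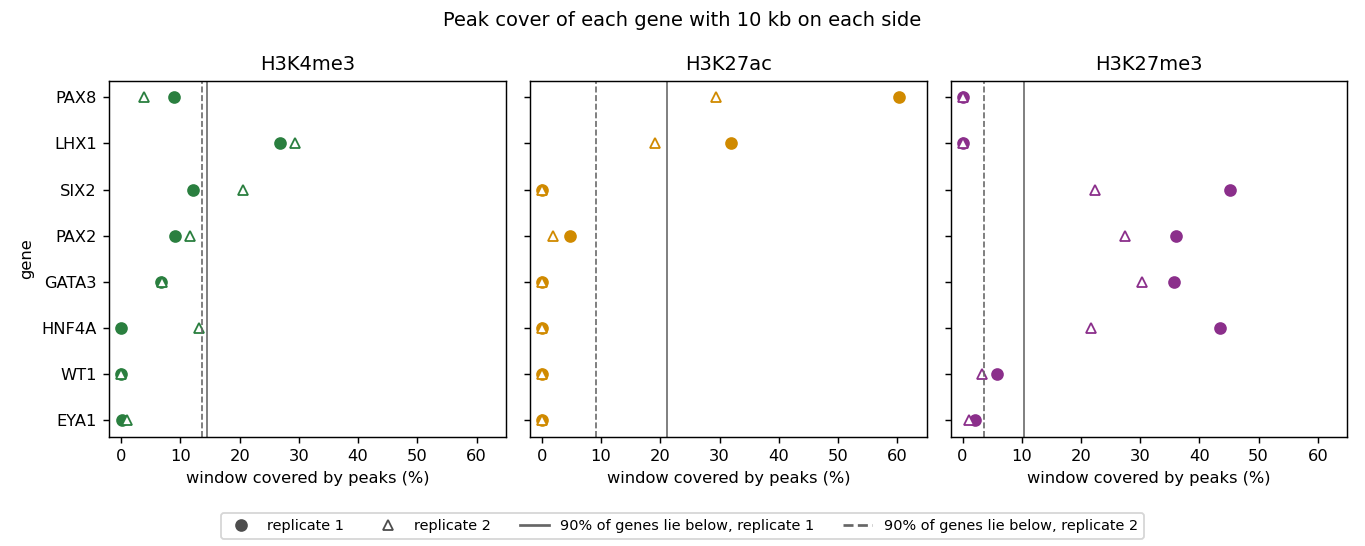
Percent of each gene with 10 kb on each side that was covered by peaks of each mark, replicate 1 filled and replicate 2 open. Lines mark the level below which 90% of protein-coding genes lie in each replicate. H3K27me3 at SIX2, PAX2, GATA3 and HNF4A lies above both lines, and at PAX8 and LHX1 it is 0.

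Peaks within 1 kb of any annotated start were counted next. PAX8 and LHX1 had active promoter marks, meaning H3K4me3 and H3K27ac in both replicates and H3K27me3 in neither, which makes 2 of 8 beside 51.4% of all genes. H3K27me3 in both replicates was found at 5 of 8 (SIX2, EYA1, PAX2, GATA3 and WT1), beside 11.4% of all genes. H3K4me3 and H3K27me3 together in both replicates were found at 4 of 8 (SIX2, EYA1, PAX2 and GATA3), beside 7.02%. H3K4me3 in both replicates was found at 6 of 8 beside 70.3%, and H3K27ac at 2 of 8 beside 55.0%. Within 0.5 kb of a start H3K27me3 was found at 3 genes (PAX2, GATA3 and EYA1), beside 10.1% of all genes. At the outermost start alone it was found at 3 (SIX2, GATA3 and WT1), beside 9.08%. Of these, SIX2 and GATA3 also had H3K4me3 there, beside 5.17% of all genes with both marks. The group thus had fewer active promoters and more H3K27me3 than the background share, but 8 genes chosen by name with results of these data known allow no test. The 2 marks come from separate ChIP libraries of many cells, so peaks of both at 1 start do not show that they sit on the same chromosomes.

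The RNA values were set beside those of all genes with the same pattern over the 6 lists. The pattern of PAX8 and LHX1 was shared by 10093 genes with a median FPKM of 11.8, and PAX8 exceeded 95.4% and LHX1 91.5% of them. The pattern of SIX2, EYA1, PAX2 and GATA3, H3K4me3 and H3K27me3 without H3K27ac, was shared by 856 genes with a median of 0.0533, of which 44 (5.14%) reached an FPKM of 1 in both libraries. Within these 856, SIX2 lay above 91.2%, PAX2 above 83.4% and GATA3 above 83.3%, whereas EYA1 was at 0. None of the 332 genes with the pattern of WT1 and none of the 82 with that of HNF4A reached an FPKM of 1. A value of 0 was rare beside active marks, at 72 of 10093 genes (0.713%), and common with H3K27me3 in both replicates, at 772 of 2239 (34.5%).

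The 27 paralogs of 7 of the factors (WT1 had none listed) were described in the same way. An FPKM of 1 in both libraries was reached by 9 of the 27 (58.8% of all genes), and 20 had H3K27me3 in both replicates at a start (11.4% of all genes). In the PAX family, PAX6 was the only paralog above 1 (7.45 and 7.32), with all 3 marks at its starts. PAX9 had 0.320 and 0.114, PAX5 0.00614 and 0, and PAX1, PAX3, PAX4 and PAX7 were listed at 0. All 7 had H3K27me3 in both replicates, and so did PAX2, so PAX8 was the 1 gene of the family without H3K27me3 at a start in both replicates and had the highest FPKM.

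In the LHX family all 7 paralogs likewise had H3K27me3 in both replicates. LHX6 stood at 3.25 and 4.26 FPKM, LHX2 at 1.58 and 2.02, and LHX4 at 0.991 and 1.32. LHX9 (0.0589 and 0.114) and LHX5 (0.0356 and 0) were lower, and LHX3 and LHX8 were listed at 0. LHX1 exceeded each of them and alone lacked H3K27me3.

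The families of SIX2, EYA1 and GATA3 showed another picture, with paralogs above the named member. SIX5 (12.4 and 10.7) and SIX4 (3.36 and 3.04) exceeded SIX2, and SIX3 and SIX6 were listed at 0. EYA3 (13.0 in both) and EYA4 (3.84 and 3.75) had active marks while EYA1 was at 0, and EYA2 had 0 and 0.0603. GATA2 (3.81 and 4.72) and GATA6 (1.68 and 1.86) exceeded GATA3, GATA1 had 0.0353 and 0.0363, and GATA4 and GATA5 were listed at 0. HNF4G, the paralog of HNF4A, had 0.721 and 0.914 with active marks. In each of these 4 families the highest FPKM thus belonged to a gene other than the nephron lineage factor.

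**Figure D5:**
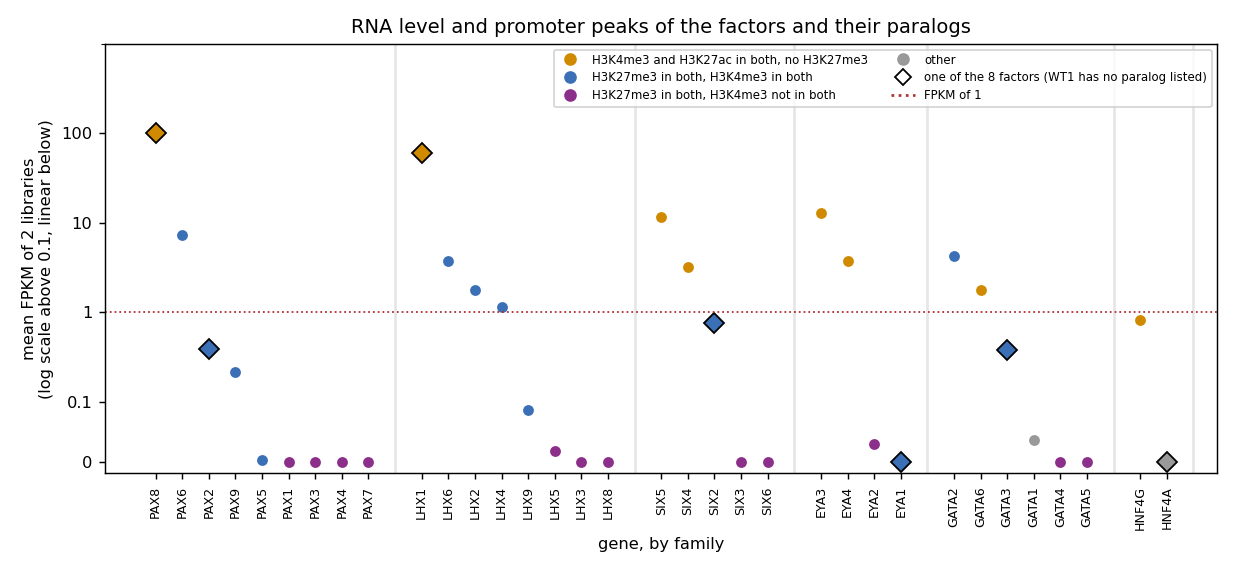
Mean FPKM of 2 libraries (vertical axis, logarithmic above 0.1 and linear below) of the factors (diamonds) and their 27 paralogs (circles), by family and coloured by peaks within 1 kb of a start in both replicates. In the PAX and LHX families 1 gene each has active marks, PAX8 and LHX1, and in the other families paralogs with active marks lie above the named factor.

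Genes that act with these factors were taken from fixed lists. Of 13 partners and cofactors, 7 reached an FPKM of 1 in both libraries and 6 had active marks, near the 58.8% and 51.4% of all genes. WTAP, named for its binding to WT1, had 61.1 in both, LDB1, the partner of LIM homeodomain proteins, 50.9 and 49.7, and its cofactor SSBP3 17.5 and 16.1. LDB2, of the same list, was listed at 0. RNA of LDB1 was thus found together with that of LHX1, and RNA of WTAP without that of WT1. With the list near the share of all genes, these pairs are not read as a result about the factors. DACH1, a partner of EYA proteins, had 0.290 and 0.423, and DACH2 was listed at 0.

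Lists of genes by stage of nephron development were set beside the 58.8% of all protein-coding genes, and differences between lists were not tested. Nephron progenitor genes reached an FPKM of 1 in 4 of 10, led by HOXD11 (5.84 and 4.65), SALL1 (2.79 and 2.84) and HOXA11 (2.05 and 2.07), and 6 of 10 had H3K27me3 in both replicates (11.4% of all genes). Genes of the renal vesicle and early nephron, where LHX1 acts, reached it in 6 of 12, led by the cadherin CDH6 (112 and 120), the Notch modifier LFNG (67.8 and 68.1) and the Wnt inhibitor DKK1 (56.7 and 62.4). WNT4, the inducer of the renal vesicle, had 0.0137 and 0.143, and BMP7 and LGR5 were listed at 0. The list median was 8.93 FPKM for the renal vesicle and 0.304 for progenitors, beside 3.32 for all genes. H3K27me3 in both replicates was also found at 6 of 12 renal vesicle genes. It was found at 8 of 13 ureteric bud and collecting duct genes, 5 of 9 podocyte genes and 2 of 6 interstitial genes.

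Tubule differentiation genes reached an FPKM of 1 in 7 of 12, near the share of all genes, with H3K27me3 at 2. They were led by CUX1 (25.3 and 23.6), MAF (15.2 and 13.3) and IRX3 (9.83 and 7.42), all transcription factors. Ureteric bud and collecting duct genes, the lineage of GATA3, reached it in 4 of 13, led by GFRA1 (154 in both), ELF3 (33.6 and 32.7) and WNT7B (7.29 and 7.06). RET, which signals with GFRA1, had 0.593 and 0.783 with H3K27me3 at its starts. Podocyte genes, the later site of WT1, reached it in 4 of 9, led by FOXD1 (17.6 and 15.2), SYNPO (14.7 and 16.2) and PODXL (4.41 and 5.85). Interstitial genes reached it in 2 of 6, FOXD1 and TBX18 (8.47 and 9.65), and PDGFRB followed with 0.933 and 0.693. Genes of several compartments were thus above an FPKM of 1 side by side, and no list was complete.

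Among the genes of these lists, with the cell type markers left out, those with the same 6-list pattern and the nearest mean FPKM were CDH6 (116) and LFNG (68.0) for PAX8, WTAP (61.1) and DKK1 (59.5) for LHX1, LHX4 (1.16) and OSR1 (0.275) for SIX2, and OSR1 and PAX9 (0.217) for both PAX2 and GATA3. For genes at 0 they were LGR5 and WNT9B for EYA1, and GATA4 and ITGA8 (0.00391) for WT1. No gene of these lists had the pattern of HNF4A. The likeness is by pattern and level in 2 libraries only.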

How the data were processed

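HK2 cells under 1 condition were profiled by ChIP-seq (3 marks, 2 replicates each) and by RNA-seq of rRNA-depleted total RNA (2 libraries). ChIP-seq reads were aligned by the authors with Bowtie2 (hg19), and MACS2 peaks were made separately for each replicate. The deposited peak lists give a chromosome and 2 limits per peak, with no score or read count per peak. RNA-seq reads were mapped with HISAT2, and the authors deposited StringTie 1.3.3 output with FPKM, TPM and coverage of each transcript. The study names hg19 for this mapping, while the deposited transcripts carry GENCODE version 27 coordinates of GRCh38. Genes were therefore joined to the peaks by Ensembl identifier, with positions from GENCODE version 44 mapped to GRCh37. As a check of the build, 60.0% and 34.4% of H3K4me3 peaks of the 2 replicates lay within 1 kb of a start on GRCh37, against 18.3% and 14.1% with GRCh38 starts.

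FPKM was summed over the transcripts of a gene. Starts closer than 500 bases were joined into clusters. Windows ran from 10 kb upstream to 10 kb downstream, peaks on 24 chromosomes were used, and a promoter carried a mark if a peak overlapped 1 kb around any start. Percentiles give the share of 19645 protein-coding genes with a lower value. FPKM is not a count, and no count model or test was used. The interval code was tested on simulated data. Python 3.11.15, numpy 2.4.6, pandas 2.3.3 and matplotlib 3.10.9 were used.

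The 8 genes and all lists were chosen with earlier results of these data known. The text names the 8 genes, genes overlapping them, their paralogs, the 3 genes of highest FPKM in each list, and up to 2 genes of the same promoter pattern and nearest FPKM. Some listed genes and 1 motif are not reported here, and counts are over the others. Others, such as WNT4, BMP7, LGR5, RET, DACH1, DACH2, LDB2, AATF, LHX1-DT, GATA3-AS1 and the marker genes, were chosen after their values were seen or from the marker lists. Promoter sequences come from RefSeq (GRCh38.p14) and were placed in hg19 by exact match. The marker PECAM1 could not be matched between the annotations and was not used.

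Alternatives covered the FPKM threshold, TPM in place of FPKM, the highest transcript, each library or replicate alone, the start window, peak width, the width of the gene window and a filter on low FPKM.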

Additional observations from a re-analysis of the deposited data

How the results depend on the processing

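The count of genes with active promoter marks (2) was the same under all 7 alternatives tried, and PAX8 and LHX1 were the genes each time. The share of all genes ran from 42.3% to 61.7% under these alternatives. The count with an FPKM of at least 1 was 2 with either library alone, 2 at a threshold of 5 or by the highest transcript, 3 at a threshold of 0.5, where SIX2 was added, and 4 on the TPM scale. The shares of all genes under these other RNA settings are not given here, so these counts have no background beside them. The count with H3K27me3 at a start (5) fell to 3 within 0.5 kb (10.1% of all genes) and to 3 at the outermost start alone (9.08%). It lay between 5 and 6 with 1 ChIP-seq replicate (13.0% and 14.5% of all genes without replicate 1 and 2). The count with H3K4me3 and H3K27me3 (4) fell to 2 at the outermost start alone (5.17% of all genes) and was 3 within 0.5 kb (6.22%). With either ChIP-seq replicate it was 4 (10.8% and 8.20% of all genes without replicate 1 and 2). By construction the narrower window and the outermost start look at fewer bases or fewer starts. When TPM replaced FPKM the percentile of SIX2 moved by less than the spread between libraries and those of the other 7 genes were the same. Leaving out genes under 0.1 FPKM must lower the percentile of any gene above that level, as it did for the 5 genes above 0. SIX2 went from the percentile 38.7 to 13.0, PAX2 from 35.4 to 8.25 and GATA3 from 35.4 to 8.23. PAX8 went from 97.6 to 96.6 and LHX1 from 95.4 to 93.5. No paired analysis was possible because the groups are different assays of 1 condition and no comparison between groups was made. With 2 replicates, peak lists without scores and little aligned sequence for the low genes, the order of PAX2 and GATA3 could not be resolved.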
